A study of Homo sapiens with 9 samples.

Results

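Solute carriers are membrane proteins that move amino acids, sugars, ions, vitamins, metals and metabolites across the plasma membrane and across the membranes of mitochondria, lysosomes and the Golgi. Their gene symbols begin with SLC and a family number. The members described here were chosen by name, biotype and level. They are the protein-coding genes whose symbol is SLC followed by a digit, without the nucleoside carrier families SLC28 and SLC29, that reached a mean of 5 CPM in at least 1 of the 3 groups. CPM are a gene's counts divided by the library's total in units of 1e06, scaled with trimmed-mean (TMM) factors. The rule took 187 of the 59609 genes in the count table, and all 187 were among the 16964 genes tested. Of the 378 protein-coding SLC genes, 7 belonged to the families left out and 184 were under the level. Just under it were SLC25A35 at 4.81 and SLC27A1 at 4.83 CPM in their highest group, and just over it SLC13A3 at 5.03, SLC27A5 at 5.16 and SLC66A3 at 5.52 CPM.

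The measurements are RNA sequencing of SUIT2, an established cell line from a human pancreatic cancer, without interferon and after human interferon beta (IFNβ) at 100 U/mL for 6 h or 24 h, with 3 libraries in each group. All cells were seeded at 500000 per well of 6-well plates, and the medium was replaced at treatment. The labels call the control libraries control treated and give no time for them, so time in culture and interferon cannot be told apart at either time point. Nothing in the labels says whether the libraries of a group came from separate cultures, and p-values then measure only the spread between these libraries. Total estimated counts ran from 15101734 to 40384407 per library. The interferon-response genes ISG15, MX1 and IFIT1 were higher in 3 of 3 cases at both times. Of the ductal markers, 6 of 6 were tested, and their summed level lay between 4830 and 5757 CPM in each library. The summed markers of leukocytes, fibroblasts, endothelium and acinar cells were at most 2.40 CPM in any library, with PTPRC, CD3E, DCN, CPA1 and PNLIP at 0 counts throughout.

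Interferon beta is a type I interferon. It binds a receptor shared by most nucleated cells, and the factor complex it activates binds DNA elements in the promoters of antiviral genes. Solute carriers touch this response in several known ways. SLC15A3 and SLC15A4 sit in endosomes and lysosomes, where they carry histidine and bacterial peptides that feed innate immune receptors. SLC19A1, the reduced folate carrier, and SLC46A3, a lysosomal relative of the proton-coupled folate carrier, are known to move cyclic dinucleotides or muropeptides, and SLC40A1, ferroportin, is the only known exporter of cellular iron. Carriers of amino acids such as SLC7A5 are commonly raised in tumours.

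By level, the members spanned 3.23 to 911 CPM as means over the 9 libraries, with a median of 30.2 CPM. Corrected for exon length, which was known for 183 of the 187, the highest members on the CPM per kb scale were the ADP/ATP carrier SLC25A5 at 229, the large neutral amino acid carrier SLC7A5 at 192, the ADP/ATP carrier SLC25A6 at 108 and the glutamate carrier SLC1A1 at 106. The median member had 5.74 CPM per kb. Summed over the 187 members, the level was 12766, 12682 and 12636 CPM in the control libraries and 12770, 12555 and 12425 CPM at 6 h. At 24 h the sums were 11431, 11347 and 11271 CPM, below every control and 6 h library with TMM factors. Those factors were 0.918, 0.924 and 0.921 at 6 h and 1.07, 1.07 and 1.08 at 24 h. The order of these sums therefore rests on the scaling, and with library totals alone the 24 h sums are not below those at 6 h. SLC7A5 is part of these sums, with means of 1167 CPM in control and 643 CPM at 24 h.

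At 6 h 104 of the 187 members did not pass an adjusted p of 0.05, 60 fell and 23 rose, with TMM factors. The deposited normalized table as it stands gave 6 lower and 16 higher, so this balance rests on the scaling. Over all genes tested the background was 17.5% higher and 15.4% lower, 32.9% in either direction, and among genes with at least 5 CPM in a group it was 22.2% and 19.5%. The members' shares were 12.3% and 32.1%. The median log2 fold change was -0.07 over the members and -0.01 over all genes tested. Most changes were small, since 66 of the 83 called members changed less than 1.5-fold, and 8.82% of all genes passed with at least 1.5-fold. At least 2-fold, 4 members rose and 2 fell (background 3.75% and 0.76%).

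By 24 h 59 members had risen and 68 had fallen against control, with 60 not passing. The background was 24.7% higher and 25.3% lower, 50.0% in either direction, and 27.8% and 32.6% among genes with at least 5 CPM, against 31.6% and 36.4% of the members. The median log2 fold change of the members was -0.04. Of the 127 called members, 97 changed less than 1.5-fold (14.5% of all genes passed with at least 1.5-fold), and at least 2-fold 6 rose and 3 fell (background 4.82% and 1.72%). Between the times, 76 members were higher at 24 h than at 6 h, 70 were lower and 41 did not pass. There the background was 26.6% higher and 30.6% lower, 57.2% in either direction, and 28.5% and 39.0% among genes with at least 5 CPM. Of those 146 members, 116 differed by less than 1.5-fold (background for at least 1.5-fold 18.8%), and at least 2-fold 8 were higher and 4 lower (4.87% and 3.57%). The level of 5 CPM was reached in 24 h libraries alone by 7 members, SLC40A1, SLC22A23, SLC3A1, SLC43A1, SLC10A7, SLC27A5 and SLC13A3. They had to be high at 24 h for the rule to take them, so their place among the rises there supports nothing, and 1 member reached the level in control libraries alone.

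How the libraries are scaled to each other sets the balance of these counts. The factors raised 6 h values and lowered 24 h values relative to library totals. With library totals alone 18 members were higher and 114 lower at 6 h, 69 and 51 at 24 h and 113 and 35 from 6 h to 24 h, and the median of all genes shifted by -0.14, 0.08 and 0.20 on the log2 scale. The authors' deposited normalized table, taken as it is (uncentred) and tested with limma on log2 of the value plus 1, moved that median by 0.13, 0.37 and 0.22 and gave 16 higher and 6 lower at 6 h, then 101 and 5 at 24 h, and 74 and 11 from 6 h to 24 h. Centred on each library's median, a step chosen after the data were seen, the same table gave 22 and 58, 43 and 71, and 66 and 65. A rise or fall described below is therefore relative to the other genes of the same library. No scaling used here measures absolute amounts, so a call said to hold in every scaling is relative too. Under all 4 other scalings 16 of the 23 rises and 6 of the 60 falls at 6 h were called again. At 24 h these were 43 of 59 and 5 of 68, and from 6 h to 24 h 66 of 76 and 11 of 70.

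**Figure D1:**
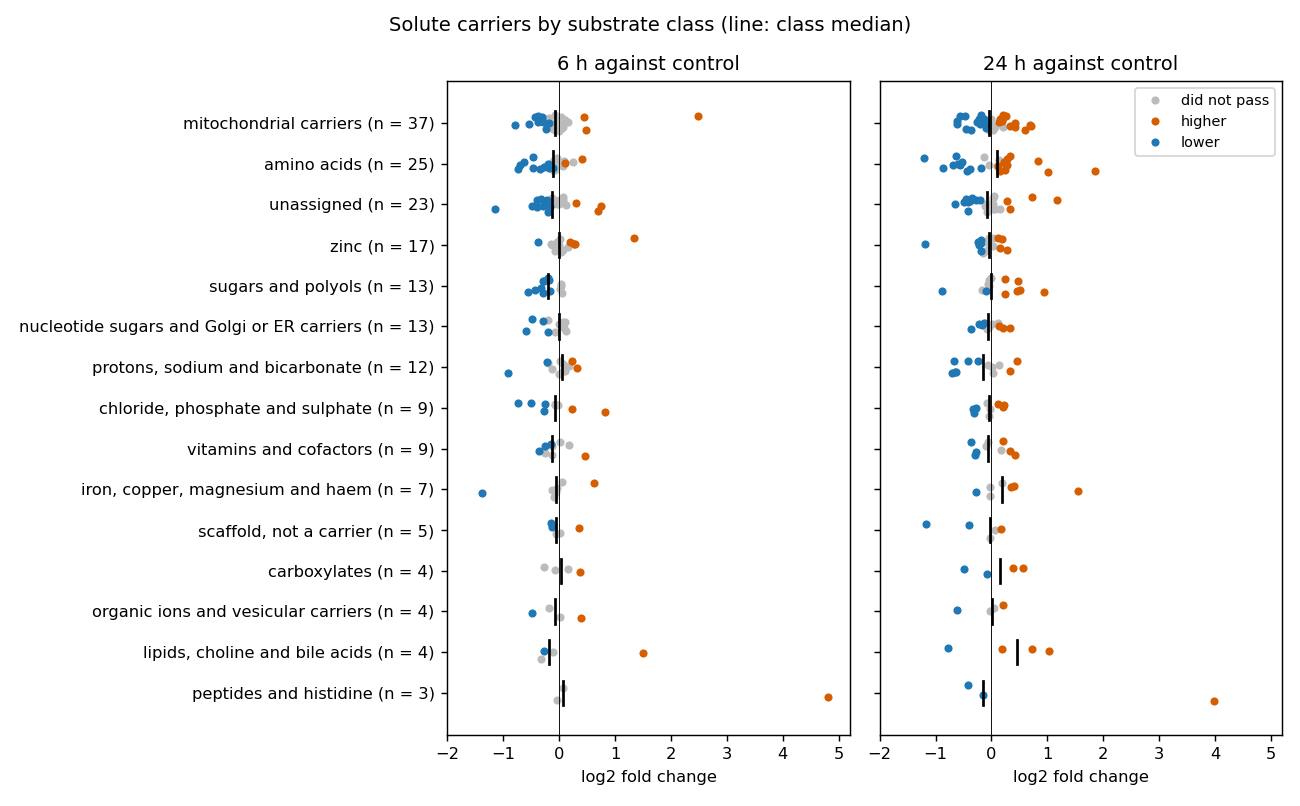
Each point is 1 member, placed by its log2 fold change at 6 h (left) or 24 h (right) against the 3 control libraries, in rows by substrate class, with the class median as a vertical line. Classes with 3 or more members are drawn. Most points lie within 1 log2 unit of 0, and SLC15A3 in the peptide class stands at 4.81 at 6 h and 3.97 at 24 h.

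The peptide and histidine carriers held the steepest rise. SLC15A3 (chromosome 11, 60937084 to 60952531, hg38) was at 4.13, 4.88 and 5.54 CPM in the control libraries, 141, 141 and 126 CPM at 6 h and 78.6, 71.9 and 76.4 CPM at 24 h. The 3 groups did not overlap, and the 24 h libraries lay between the others. Here and below, genes that lead a comparison or class were picked among those without overlap there, so lack of overlap adds no support. Its control mean of 4.85 CPM is under the member level, which it reached with interferon. The rise was 28.0-fold at 6 h (log2 fold change 4.81, SE 0.082, edgeR adjusted p = 1.51e-16) and 15.7-fold at 24 h (log2 fold change 3.97, SE 0.086, edgeR adjusted p = 6.05e-15), and the level then was lower than at 6 h by 1.79-fold (log2 fold change -0.84, SE 0.049, edgeR adjusted p = 1.02e-09). These 3 calls held in every scaling. TMEM132A, which overlaps SLC15A3 on the opposite strand, was at 39.4, 46.5 and 55.2 CPM in the 3 groups. Whether the counting used strand is not stated, so reads of overlapping genes cannot be told apart. SLC15A4, its close relative in endolysosomes, did not pass at 6 h (log2 fold change 0.07, SE 0.055, edgeR adjusted p = 0.358) and was lower at 24 h than at 6 h by 1.16-fold (log2 fold change -0.22, SE 0.051, edgeR adjusted p = 0.00185), a call not kept with library totals alone or in the deposited table. The plasma membrane di- and tripeptide carrier SLC15A1 was at 165 ± 0.224 CPM (mean ± SD, n = 3) in control, 161 ± 4.39 CPM at 6 h and 123 ± 3.88 CPM at 24 h. It fell by 24 h (log2 fold change -0.42, SE 0.033, edgeR adjusted p = 3.71e-08), although in the uncentred deposited table its value was 0.02 and not called.

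Among carriers tied to innate immune sensing, 8 of a list of 10 were tested, and 6 of them are members. At 6 h 1 rose and 3 fell, and at 24 h 5 rose and 2 fell. These are 50.0% and 87.5% of 8 genes, beside 32.9% and 50.0% of all genes, and so few genes say nothing particular to the list. In the uncentred deposited table the counts were 1 and 1 at 6 h and 6 and 0 at 24 h. SLC46A3, which is under the member level, was at 1.14, 1.31 and 1.24 CPM in control, 1.04, 0.831 and 1.13 CPM at 6 h and 4.74, 4.85 and 4.64 CPM at 24 h. All its 24 h libraries were above the rest, and the value at 6 h did not pass (at 24 h log2 fold change 1.94, SE 0.15, edgeR adjusted p = 4.92e-08). The peptide carrier SLC15A2, also under the level, went from 0.690 ± 0.0811 CPM to 1.45 ± 0.157 CPM at 24 h (log2 fold change 1.05, SE 0.24, edgeR adjusted p = 0.00184). SLC19A1 fell from 71.1 ± 1.59 CPM in control to 55.2 ± 1.30 CPM at 24 h (log2 fold change -0.36, SE 0.053, edgeR adjusted p = 4e-05). Its value was positive in the uncentred deposited table, and at 6 h its call (log2 fold change -0.15, SE 0.055, edgeR adjusted p = 0.0499) was lost without any of 7 libraries, with a value of -0.06 without 6 h library 3. COL18A1, which overlaps SLC19A1 on the opposite strand, was at 136, 138 and 88.4 CPM in control, 6 h and 24 h libraries.

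Iron carriers moved in different directions and at different times. SLC25A28, mitoferrin-2, which brings iron into mitochondria, had 18.6, 16.8 and 16.5 CPM in control, 94.5, 97.2 and 97.8 CPM at 6 h and 27.6, 28.1 and 27.7 CPM at 24 h (chromosome 10, 99610522 to 99620610). All 6 h libraries were above all 24 h libraries, and those above all controls. It rose 5.58-fold at 6 h (log2 fold change 2.48, SE 0.047, edgeR adjusted p = 5.38e-16) and was 1.61-fold above control at 24 h (log2 fold change 0.68, SE 0.051, edgeR adjusted p = 2.55e-08), and both calls held in every scaling. Its relative SLC25A37, mitoferrin-1, was at 55.6 ± 2.32, 59.7 ± 3.38 and 36.1 ± 0.609 CPM in control, 6 h and 24 h libraries. It did not pass at 6 h and was 1.65-fold lower at 24 h than at 6 h (log2 fold change -0.73, SE 0.046, edgeR adjusted p = 2.5e-09), in every scaling.

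Ferroportin, SLC40A1 (chromosome 2, 189560590 to 189583759), was low, with 2.40, 2.41 and 1.89 CPM in control, 1.04, 0.508 and 1.02 CPM at 6 h and 6.83, 6.48 and 6.51 CPM at 24 h. The 6 h libraries were all below the controls and the 24 h libraries all above them. It reached the member level at 24 h alone, so a high 24 h value is what the rule took. It fell 2.60-fold at 6 h (log2 fold change -1.38, SE 0.22, edgeR adjusted p = 0.000182), was 2.94-fold above control at 24 h (log2 fold change 1.55, SE 0.16, edgeR adjusted p = 9.91e-07) and differed 7.63-fold between the times (log2 fold change 2.93, SE 0.18, edgeR adjusted p = 1.76e-09). The calls held in every scaling, but the 6 h value rests on 62 counts over 3 libraries, of which 1 library has 11. SLC11A2, which carries ferrous iron out of endosomes, did not pass at 6 h and rose from 52.3 ± 2.27 to 67.0 ± 0.829 CPM at 24 h (log2 fold change 0.36, SE 0.041, edgeR adjusted p = 3.37e-06). In its class the magnesium carrier SLC41A2 went from 43.4, 49.5 and 43.8 CPM to 75.1, 64.8 and 72.8 CPM at 6 h (log2 fold change 0.63, SE 0.07, edgeR adjusted p = 3.57e-06) and was still above control at 24 h with 63.5, 62.5 and 55.1 CPM (log2 fold change 0.40, SE 0.069, edgeR adjusted p = 0.000172). The copper carrier SLC31A1 passed in none of the 3 comparisons.

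**Figure D2:**
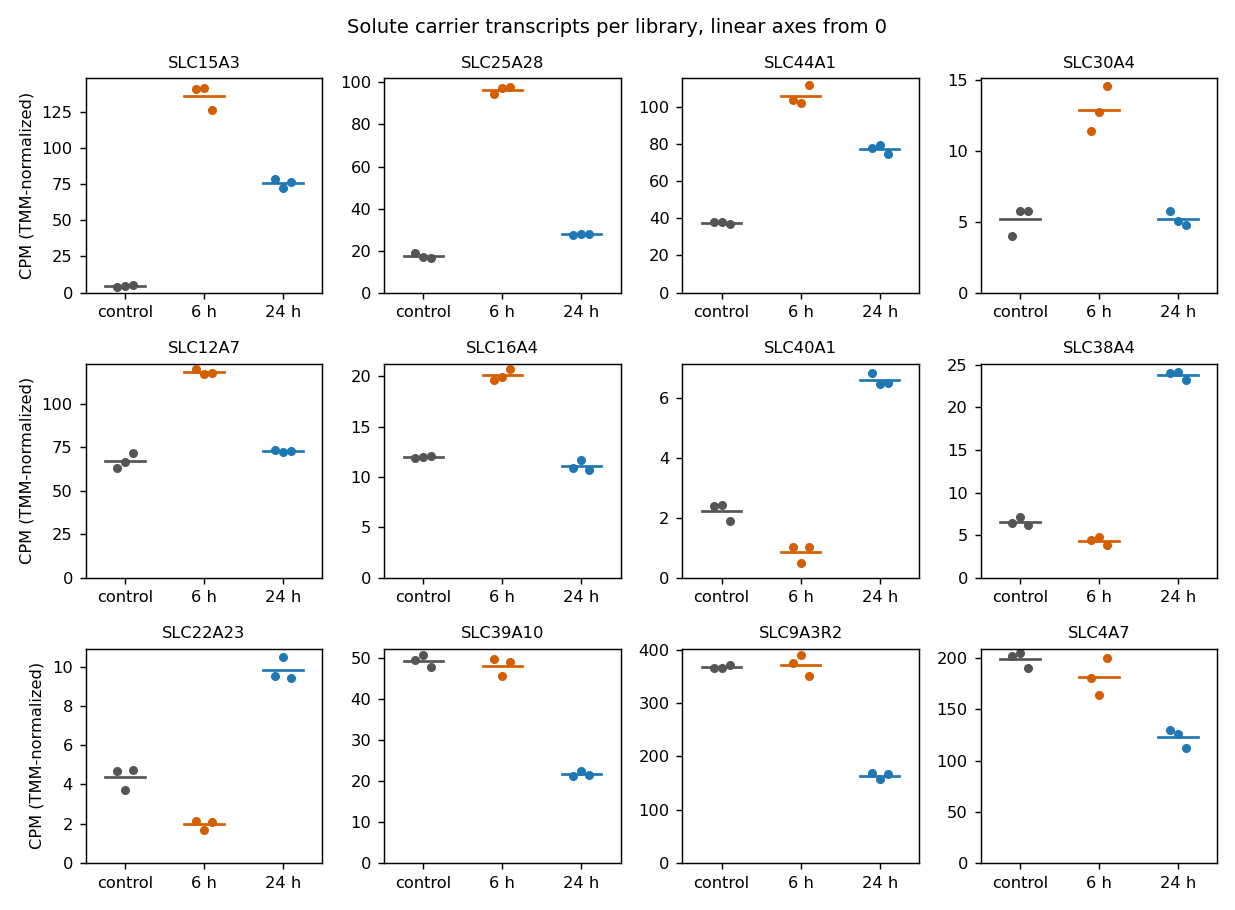
CPM with TMM factors per library for 12 members that lead the comparisons, on linear axes that start at 0. Each point is 1 library and each line the mean of 3. SLC15A3, SLC25A28, SLC44A1, SLC30A4, SLC12A7 and SLC16A4 are highest at 6 h, SLC40A1, SLC38A4 and SLC22A23 are lowest at 6 h and highest at 24 h, and SLC39A10, SLC9A3R2 and SLC4A7 are lowest at 24 h.

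Of the 4 carriers of lipids, choline and bile acids, 1 rose and 1 fell at 6 h, and 3 rose and 1 fell at 24 h. Of all genes 32.9% and 50.0% were called, and 4 carriers are too few to say anything particular to the class. SLC44A1, the widely expressed choline carrier (chromosome 9, 105244622 to 105439172), was at 38.1, 37.9 and 36.9 CPM in control, 104, 102 and 111 CPM at 6 h and 77.8, 79.2 and 74.4 CPM at 24 h. The groups did not overlap. It rose 2.81-fold at 6 h (log2 fold change 1.49, SE 0.046, edgeR adjusted p = 3.7e-13) and 2.05-fold at 24 h (log2 fold change 1.03, SE 0.045, edgeR adjusted p = 4.47e-11), in every scaling. Its relative SLC44A2 was at 29.9, 28.1 and 28.1 CPM in control, 26.5, 27.2 and 26.6 CPM at 6 h and 31.8, 30.8 and 35.3 CPM at 24 h. It did not pass at 6 h (log2 fold change -0.10, SE 0.06, edgeR adjusted p = 0.231) and was higher at 24 h (log2 fold change 0.19, SE 0.056, edgeR adjusted p = 0.0115). The fatty acid carrier SLC27A4 was at 60.8, 62.7 and 66.8 CPM, 52.3, 54.3 and 51.1 CPM and 36.0, 38.3 and 36.5 CPM in the same order. It fell at 6 h (log2 fold change -0.27, SE 0.045, edgeR adjusted p = 0.000213) and further by 24 h (log2 fold change -0.78, SE 0.045, edgeR adjusted p = 1.01e-09), but in the uncentred deposited table the values of -0.10 and -0.33 were not called. SLC27A5, a bile acid and fatty acid CoA ligase that shares this family's number, reached the member level at 24 h alone and went from 3.15 ± 0.509 to 5.16 ± 0.408 CPM (log2 fold change 0.72, SE 0.16, edgeR adjusted p = 0.00134).

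To set letters beside the values, the 250 bases before the RefSeq start site (GRCh38.p14) are printed here for SLC25A28 and SLC44A1, the highest risers at 6 h with an entry in the promoter table, and for SLC38A4, a member lower at 6 h and higher at 24 h. All are on the strand of the gene, 5′ to 3′, and capitals mark the core of the interferon-stimulated response element, GAAANNGAA, which of these 3 stands in that of SLC38A4. The deposited gene spans reach upstream of these RefSeq starts in all 3 cases.
SLC25A28, minus strand, chr10:99620440-99620689: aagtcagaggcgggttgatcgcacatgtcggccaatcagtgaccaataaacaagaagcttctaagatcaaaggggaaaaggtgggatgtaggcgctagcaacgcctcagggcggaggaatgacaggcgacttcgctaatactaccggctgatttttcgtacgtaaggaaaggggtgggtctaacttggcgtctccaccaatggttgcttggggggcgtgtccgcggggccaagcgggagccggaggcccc
SLC44A1, plus strand, chr9:105244401-105244650: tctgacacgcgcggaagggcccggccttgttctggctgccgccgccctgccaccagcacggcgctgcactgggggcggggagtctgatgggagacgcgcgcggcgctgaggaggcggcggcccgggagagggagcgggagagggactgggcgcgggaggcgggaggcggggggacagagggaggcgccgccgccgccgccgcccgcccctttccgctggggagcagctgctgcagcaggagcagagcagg
SLC38A4, minus strand, chr12:46825998-46826247: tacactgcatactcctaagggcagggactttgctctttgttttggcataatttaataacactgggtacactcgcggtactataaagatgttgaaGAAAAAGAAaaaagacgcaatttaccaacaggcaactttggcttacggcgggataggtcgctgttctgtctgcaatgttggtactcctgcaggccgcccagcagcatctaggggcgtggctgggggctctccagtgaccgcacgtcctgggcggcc

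Promoters of 300 bases, 250 before and 50 after the start, were found for 149 of the 187 members. The core GAAANNGAA, searched on both strands, stood in 5 of the 149 (3.36%) and in 8.29% of 27305 promoters of the table. The 5 holders were SLC16A3, SLC19A1, SLC25A46, SLC36A1 and SLC38A4, where it lies 156 bases before the start. Of the 16 members higher at 6 h that have a promoter entry, 0 held it. The gamma-activated site TTCNNNGAA stood in 9 of 149 (6.04%, all promoters 7.88%) and the core TGATGNAA of the ATF4 composite element in 6 (4.03%, all promoters 3.67%). The 3 motifs were counted separately, so overlapping matches each count. These matches describe letters in a window and no binding was measured.

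Zinc carriers changed in both directions at both times. At 6 h 4 of 17 rose and 1 fell, and at 24 h 4 rose and 6 fell. The shares called, 29.4% and 58.8%, stand beside a background of 32.9% and 50.0%. Among genes with at least 5 CPM in a group the background was 41.7% and 60.3%. With 17 carriers these shares say nothing particular to the class. With library totals alone the counts became 2 and 10, then 4 and 4, and in the uncentred deposited values 1 and 0, then 8 and 1. SLC30A4, which loads zinc into vesicles, went from 4.01, 5.73 and 5.73 CPM in control to 11.4, 12.7 and 14.6 CPM at 6 h and stood at 5.78, 5.07 and 4.80 CPM at 24 h. Control and 24 h libraries overlapped and the 6 h libraries lay above both. The rise was 2.52-fold (log2 fold change 1.33, SE 0.14, edgeR adjusted p = 1.39e-06) and the value at 24 h 0.02 (SE 0.14, edgeR adjusted p = 0.927). The importer SLC39A10 showed the opposite timing, with 49.5, 50.9 and 47.8 CPM in control, 49.9, 45.7 and 49.0 CPM at 6 h and 21.3, 22.4 and 21.5 CPM at 24 h. Control and 6 h libraries overlapped and the 24 h libraries lay below both. It fell 2.28-fold by 24 h (log2 fold change -1.19, SE 0.047, edgeR adjusted p = 1.28e-11), in every scaling.

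SLC39A6, a zinc importer of the same subfamily as SLC39A10, was at 37.7 ± 0.760, 45.4 ± 1.49 and 31.8 ± 0.835 CPM in control, 6 h and 24 h libraries. It was higher at 6 h (log2 fold change 0.26, SE 0.044, edgeR adjusted p = 0.000245) and lower at 24 h (log2 fold change -0.24, SE 0.044, edgeR adjusted p = 0.00025), though in the uncentred deposited table the 24 h value was 0.19. SLC30A5, which loads zinc into the secretory pathway, fell at 6 h (log2 fold change -0.38, SE 0.05, edgeR adjusted p = 2.62e-05), with -0.22 and no call in the uncentred deposited table. SLC39A14, which carries zinc and iron, is among the most abundant members, with 399, 409.8 and 399.6 CPM in control, 465, 465 and 453 CPM at 6 h and 436, 438 and 440.5 CPM at 24 h. Its rises of 0.19 and 0.12 passed (edgeR adjusted p = 2.09e-05 and 0.000865), and the 6 h rise was lost with library totals alone and in the uncentred deposited table. SLC30A1, the exporter at the plasma membrane, did not pass at 6 h and was higher at 24 h (log2 fold change 0.20, SE 0.04, edgeR adjusted p = 0.000802).

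Amino acid carriers moved both ways by 24 h, and SLC7A5, their most abundant member, weighed heavily in their summed level. At 6 h 2 of 25 rose and 11 fell, and at 24 h 11 rose and 10 fell. These are 52.0% and 84.0% called, beside 32.9% and 50.0% of all genes and 41.7% and 60.3% of genes with at least 5 CPM. The uncentred deposited table gave 1 and 1 at 6 h and 14 and 2 at 24 h, and with library totals alone 1 and 17, then 13 and 10. The class sum was 3533 ± 21.2 CPM (mean ± SD, n = 3) in control, 3254 ± 68.9 CPM at 6 h and 2789 ± 32.0 CPM at 24 h. SLC7A5 alone had means of 1167, 922 and 643 CPM in those sums, and the class median at 24 h was 0.09 on the log2 scale. SLC7A5 (LAT1), the light chain that carries leucine and other large neutral amino acids, was the most abundant member with 1164, 1159 and 1179 CPM in control, 959, 935 and 872 CPM at 6 h and 636, 628 and 664 CPM at 24 h. Each group lay below the one before. It fell 1.27-fold at 6 h (log2 fold change -0.34, SE 0.033, edgeR adjusted p = 6.67e-07) and 1.82-fold by 24 h (log2 fold change -0.86, SE 0.033, edgeR adjusted p = 7.68e-12). The 24 h call held in every scaling, and the 6 h value was -0.17 and not called in the uncentred deposited table.

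SLC7A11 (xCT), the light chain of the cystine-glutamate exchanger, followed the same order, with 34.0, 34.0 and 33.9 CPM in control, 24.2, 22.3 and 26.6 CPM at 6 h and 14.8, 15.7 and 13.7 CPM at 24 h. Its fall was 1.38-fold at 6 h (log2 fold change -0.47, SE 0.066, edgeR adjusted p = 4.85e-05) and 2.31-fold at 24 h (log2 fold change -1.21, SE 0.067, edgeR adjusted p = 7.33e-10), the latter in every scaling. Their shared heavy chain SLC3A2 (CD98hc) was at 273, 268 and 279 CPM, 264, 265 and 243 CPM and 167, 169 and 173 CPM. Its control and 6 h libraries did not overlap, yet it did not pass at 6 h (log2 fold change -0.09, SE 0.036, edgeR adjusted p = 0.0779). By 24 h it fell 1.61-fold (log2 fold change -0.69, SE 0.036, edgeR adjusted p = 4.31e-10), with -0.25 and no call in the uncentred deposited table. Of the 6 tested chains of this list, 4 fell and 0 rose at 6 h and 4 fell and 1 rose at 24 h. These are 66.7% and 83.3% of 6 chains, beside 32.9% and 50.0% of all genes, and so few chains say nothing particular to the list. The light chain SLC7A6 fell at 6 h (log2 fold change -0.27, SE 0.049, edgeR adjusted p = 0.000431), and the related SLC7A8, under the member level, passed in none of the comparisons.

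The chain that rose was SLC3A1 (rBAT), the heavy chain of the cystine and dibasic amino acid carrier, with 4.25, 4.38 and 3.84 CPM in control, 2.53, 2.35 and 2.79 CPM at 6 h and 8.50, 8.66 and 8.03 CPM at 24 h. The 3 groups did not overlap. It reached the member level at 24 h alone, so its high 24 h value is what the rule took. It fell 1.61-fold at 6 h (log2 fold change -0.69, SE 0.13, edgeR adjusted p = 0.000602) and was 2.01-fold above control at 24 h (log2 fold change 1.01, SE 0.11, edgeR adjusted p = 1.32e-06). The 24 h call held in every scaling, and the fall was -0.40 and not called in the uncentred deposited table. The annotated gene AC013717.1 overlaps it on the same strand and went from 3.11 CPM in control to 8.34 CPM at 24 h (1.42 on the log2 scale), so reads of the pair may not be separable, which was not tested. PREPL overlaps it on the opposite strand, at 59.5, 46.5 and 54.8 CPM in control, 6 h and 24 h libraries, with a 6 h log2 fold change of -0.35. With strand use not stated, the part of either neighbour in these values cannot be told apart.

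Sodium-coupled neutral amino acid carriers of family SLC38 diverged. SLC38A1 fell by 24 h, from 561, 565 and 560.4 CPM through 498, 469.8 and 527 CPM at 6 h to 373, 369 and 350.3 CPM (log2 fold change -0.63, SE 0.037, edgeR adjusted p = 1.73e-09), with -0.19 and no call in the uncentred deposited table. SLC38A2 was at 255, 254 and 228 CPM, 239, 223 and 244 CPM and 336, 315 and 279 CPM, with control and 6 h libraries overlapping. It rose at 24 h (log2 fold change 0.34, SE 0.06, edgeR adjusted p = 0.000248). SLC38A4 (chromosome 12, 46764761 to 46832409), whose promoter is printed above, was at 6.47, 7.14 and 6.19 CPM in control, 4.41, 4.76 and 3.89 CPM at 6 h and 24.0, 24.1 and 23.2 CPM at 24 h. Its 24 h libraries were all over 3 times any control library, and its 6 h libraries all below the controls. The fall at 6 h was 1.55-fold (log2 fold change -0.63, SE 0.1, edgeR adjusted p = 0.000199) and the rise at 24 h 3.58-fold (log2 fold change 1.84, SE 0.078, edgeR adjusted p = 2.89e-11). The rise held in every scaling, and the fall was -0.36 and not called in the uncentred deposited table.

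The other amino acid carriers moved less. The glutamate carrier SLC1A1 rose at 6 h, from 368, 384 and 355 CPM to 497, 481 and 489.9 CPM (log2 fold change 0.41, SE 0.031, edgeR adjusted p = 4.47e-08), and stood at 415, 414 and 402 CPM at 24 h (log2 fold change 0.15, SE 0.031, edgeR adjusted p = 0.000684). The glutamine carrier SLC1A5 was at 189.6 ± 2.37, 177 ± 6.88 and 205 ± 2.42 CPM. Its 6 h value (log2 fold change -0.10, SE 0.033, edgeR adjusted p = 0.026) was lost without control library 2, control library 3 or 6 h library 3, and its 24 h value of 0.12 (SE 0.032, edgeR adjusted p = 0.00761) was lost in the centred deposited table. The leucine carriers SLC43A1 and SLC43A2 parted, with 0.83 (SE 0.12, edgeR adjusted p = 4.25e-05) and -0.52 (SE 0.11, edgeR adjusted p = 0.000791) on the log2 scale at 24 h, though SLC43A1 reached the member level at 24 h alone and SLC43A2 lost its 24 h call in the uncentred deposited table. The cationic amino acid carrier SLC7A2 fell at 6 h from 51.5, 53.9 and 55.1 CPM to 41.2, 36.9 and 38.0 CPM (log2 fold change -0.47, SE 0.046, edgeR adjusted p = 9.12e-07) and was at 51.6, 52.3 and 50.8 CPM at 24 h.

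**Figure D3:**
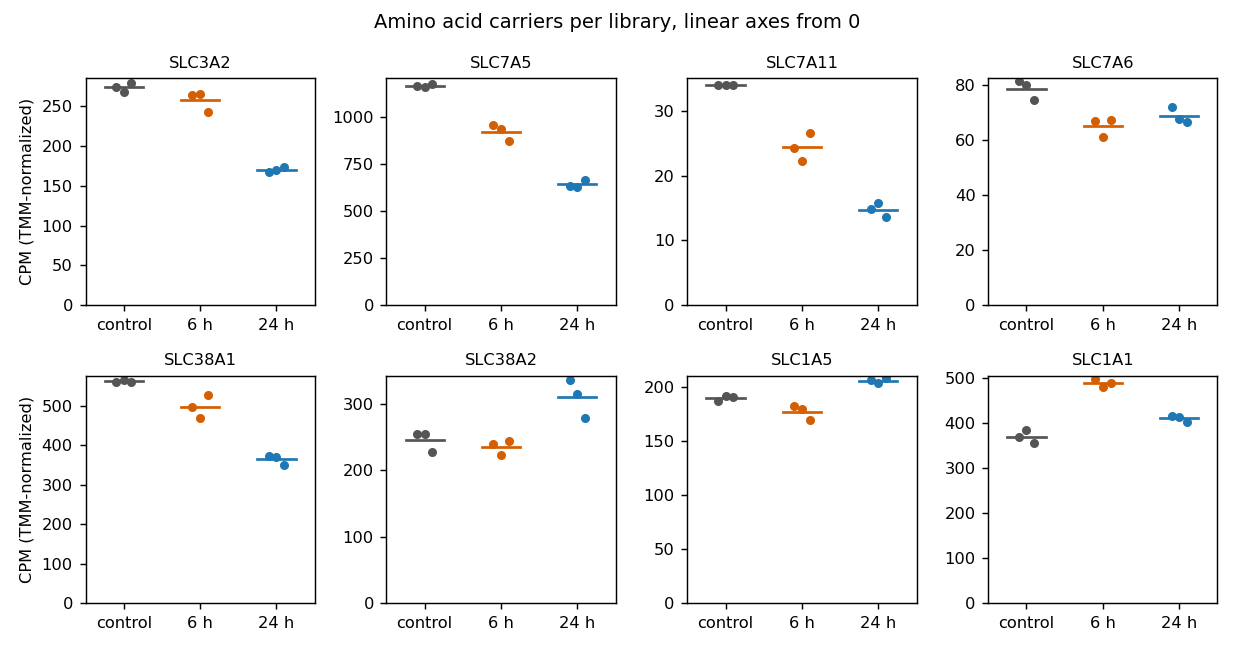
CPM with TMM factors per library for 8 amino acid carriers, on linear axes that start at 0, with 1 point per library and a line at the mean of 3. SLC3A2, SLC7A5, SLC7A11 and SLC38A1 are lowest in the 24 h libraries, SLC38A2 and SLC1A5 are highest there, and SLC1A1 is highest at 6 h.

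Sugar and polyol carriers were called lower at 6 h relative to the other genes in 9 of 13 cases, and the count higher at 24 h than at 6 h moved with the scaling. Of the 13, 0 rose and 9 fell at 6 h, 6 rose and 2 fell at 24 h, and 10 were higher and 1 lower at 24 h than at 6 h. These are 69.2%, 61.5% and 84.6% called, beside 32.9%, 50.0% and 57.2% of all genes. Among genes with at least 5 CPM in a group the background was 41.7%, 60.3% and 67.5%. Lower at 6 h were 15.4% of all genes, 19.5% of those with at least 5 CPM and 32.1% of all members, beside 69.2% of these 13. The 6 h falls were 9 with library totals alone and 8 in the centred deposited table, and none of the 13 was called in the uncentred one. Those higher at 24 h than at 6 h were 11 with library totals alone, 8 in the uncentred deposited table and 6 in the centred one. With 13 carriers these counts are not read as particular to the class. The class median at 6 h was -0.20, against -0.01 for all genes. The main glucose carrier SLC2A1 was at 185, 177 and 178 CPM in control, 162, 160.3 and 150.2 CPM at 6 h and 169.5, 167 and 171 CPM at 24 h, a fall of 1.15-fold at 6 h (log2 fold change -0.20, SE 0.035, edgeR adjusted p = 0.000404). SLC2A10, a glucose and ascorbate carrier of inner membranes, had 7.97, 7.44 and 8.40 CPM, 7.07, 6.56 and 6.18 CPM and 15.3, 14.9 and 15.1 CPM. Its 24 h libraries stood far above the rest, a 1.91-fold rise (log2 fold change 0.93, SE 0.078, edgeR adjusted p = 9.11e-08) that held in every scaling, while its 6 h value (log2 fold change -0.28, SE 0.09, edgeR adjusted p = 0.0278) was lost without any of 4 libraries.

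The sugar-phosphate exchangers of family SLC37 parted at 24 h. SLC37A1 was at 63.3, 61.2 and 59.7 CPM in control, 52.8, 55.7 and 56.4 CPM at 6 h and 88.2, 87.8 and 85.8 CPM at 24 h, and rose 1.42-fold (log2 fold change 0.51, SE 0.037, edgeR adjusted p = 1.64e-08). SLC37A2 was at 22.8, 26.0 and 25.9 CPM, 19.5, 18.7 and 17.4 CPM and 13.6, 14.0 and 13.2 CPM, and fell 1.84-fold by 24 h (log2 fold change -0.88, SE 0.065, edgeR adjusted p = 2.33e-08). Both 24 h calls held in every scaling. The myo-inositol carrier SLC5A3 did not pass at 6 h and rose from 132, 130.1 and 126 CPM to 194, 184 and 154 CPM at 24 h (log2 fold change 0.46, SE 0.075, edgeR adjusted p = 0.000116). SLC50A1, a Golgi sugar carrier, did the same, from 17.7, 18.1 and 19.0 CPM to 25.4, 25.6 and 24.6 CPM (log2 fold change 0.47, SE 0.061, edgeR adjusted p = 1.21e-05). MRPS6 overlaps SLC5A3 on the same strand, at 136, 148 and 139 CPM in control, 6 h and 24 h libraries. Reads of that pair may not be separable, which was not tested. SLC45A3 fell at 6 h alone, from 9.04 ± 0.951 to 6.16 ± 0.875 CPM (log2 fold change -0.55, SE 0.11, edgeR adjusted p = 0.00148).

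Lactate and pyruvate carriers of family SLC16 differed from each other. SLC16A1 (MCT1) was at 117, 117 and 114 CPM in control, 149, 150.0 and 154 CPM at 6 h and 111, 111 and 109 CPM at 24 h. It rose 1.30-fold at 6 h (log2 fold change 0.38, SE 0.03, edgeR adjusted p = 6.56e-08). Its 24 h value (log2 fold change -0.08, SE 0.03, edgeR adjusted p = 0.0409) was lost without any of 7 libraries and was positive in the uncentred deposited table. SLC16A3 (MCT4), the lactate exporter, did not pass at 6 h and was higher at 24 h, from 34.0, 30.6 and 35.0 CPM to 41.5, 43.6 and 43.9 CPM (log2 fold change 0.38, SE 0.061, edgeR adjusted p = 9.33e-05). CSNK1D, which overlaps SLC16A3 on the opposite strand, was at 153, 154 and 143 CPM in control, 6 h and 24 h libraries. SLC16A4, a member of the family with no settled substrate, was at 11.9, 12.0 and 12.1 CPM, 19.6, 19.9 and 20.8 CPM and 10.8, 11.7 and 10.7 CPM, a rise at 6 h of 1.68-fold (log2 fold change 0.75, SE 0.064, edgeR adjusted p = 1.76e-07) with no call at 24 h (log2 fold change -0.12, SE 0.066, edgeR adjusted p = 0.148). SLC13A3, a sodium-coupled dicarboxylate carrier, reached the member level at 24 h alone.

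Mitochondrial carriers are the largest class, with 37 members, of which 3 rose and 10 fell at 6 h and 12 rose and 16 fell at 24 h. The share called at 6 h, 35.1%, is near the background of 32.9%, and at 24 h it was 75.7% beside 50.0%. Among genes with at least 5 CPM in a group these backgrounds were 41.7% and 60.3%. With library totals alone the counts were 3 and 25, then 14 and 7, and in the uncentred deposited values 3 and 1, then 19 and 0. SLC25A22, a glutamate carrier of the inner membrane, was at 98.4, 107 and 99.6 CPM in control, 146, 141 and 128 CPM at 6 h and 72.0, 73.7 and 76.0 CPM at 24 h. It rose at 6 h (log2 fold change 0.44, SE 0.047, edgeR adjusted p = 2.72e-06) and was lower than control at 24 h (log2 fold change -0.46, SE 0.048, edgeR adjusted p = 1.04e-06), where the uncentred deposited table gave -0.02 and no call. SLC25A12, the aspartate-glutamate exchanger of the malate-aspartate shuttle, showed the reverse, with 19.5, 16.0 and 15.2 CPM, 14.4, 13.2 and 12.1 CPM and 27.9, 26.8 and 28.0 CPM. Its fall at 6 h was -0.38 (SE 0.089, edgeR adjusted p = 0.004) and its rise at 24 h 0.70 (SE 0.077, edgeR adjusted p = 1.9e-06) on the log2 scale. HAT1, which overlaps SLC25A12 on the opposite strand, was at 80.8, 89.5 and 95.9 CPM in control, 6 h and 24 h libraries.

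The carnitine-acylcarnitine carrier SLC25A20 was at 26.3 ± 0.870, 21.5 ± 0.998 and 33.3 ± 2.19 CPM, lower at 6 h (log2 fold change -0.29, SE 0.062, edgeR adjusted p = 0.00224) and higher at 24 h (log2 fold change 0.34, SE 0.057, edgeR adjusted p = 0.000149). The coenzyme A carrier SLC25A42 fell from 7.07, 6.84 and 7.62 CPM to 4.28, 4.66 and 3.66 CPM at 6 h (log2 fold change -0.79, SE 0.12, edgeR adjusted p = 7.82e-05), in every scaling, and was at 8.54, 8.07 and 9.11 CPM at 24 h, where its call (log2 fold change 0.26, SE 0.1, edgeR adjusted p = 0.0454) was lost without any of 6 libraries. The basic amino acid carrier SLC25A29 was at 22.1 ± 0.855, 17.2 ± 1.60 and 25.6 ± 1.05 CPM and fell at 6 h (log2 fold change -0.38, SE 0.07, edgeR adjusted p = 0.000481). SLC25A30, another inner membrane carrier, rose at 6 h from 16.7, 17.8 and 19.7 CPM to 26.1, 24.7 and 24.6 CPM (log2 fold change 0.47, SE 0.063, edgeR adjusted p = 2.53e-05). Of the ADP/ATP carriers, which are close paralogs and may share reads, SLC25A6 was at 259, 255 and 255 CPM, 262, 264 and 257 CPM and 181, 183 and 187 CPM and fell by 24 h (log2 fold change -0.48, SE 0.028, edgeR adjusted p = 1.39e-09). In the uncentred deposited table its value was -0.04 and not called. SLC25A5 had means of 347, 359.8 and 325 CPM, and SLC25A4 rose from 11.8 ± 0.395 to 17.8 ± 0.372 CPM at 24 h (log2 fold change 0.59, SE 0.06, edgeR adjusted p = 7.38e-07). The phosphate carrier SLC25A3 was at 399, 382 and 382 CPM, 396, 396 and 368 CPM and 342, 335 and 338 CPM, with a 24 h value of -0.20 (SE 0.032, edgeR adjusted p = 0.000114) that turned positive in the uncentred deposited table.

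Carriers of protons, sodium and bicarbonate, which set the pH of the cell, numbered 12, of which 2 rose and 2 fell at 6 h and 2 rose and 6 fell at 24 h. At 6 h that is 16.7% in each direction, near the background of 17.5% and 15.4%, and at 24 h 66.7% were called beside 50.0%. Among genes with at least 5 CPM in a group it was 22.2% and 19.5% at 6 h, and 60.3% called at 24 h. The uncentred deposited table gave 1 and 1, then 5 and 0. The exchanger SLC9A2 was at 40.0, 38.6 and 39.5 CPM in control, 20.3, 21.4 and 20.6 CPM at 6 h and 25.7, 24.4 and 24.0 CPM at 24 h, without overlap between groups. It fell 1.89-fold at 6 h (log2 fold change -0.92, SE 0.049, edgeR adjusted p = 5.59e-10), in every scaling, and was 1.59-fold lower at 24 h (log2 fold change -0.67, SE 0.046, edgeR adjusted p = 7.96e-09). The sodium-bicarbonate carrier SLC4A7 was at 203, 205 and 191 CPM, 181, 164 and 201 CPM and 129.7, 126 and 113 CPM and fell by 24 h (log2 fold change -0.70, SE 0.064, edgeR adjusted p = 2.25e-07), with -0.26 and no call in the uncentred deposited table. The anion exchangers SLC4A2 and SLC4A3 had 24 h values of -0.24 (SE 0.031, edgeR adjusted p = 7.8e-06) and -0.63 (SE 0.061, edgeR adjusted p = 4.72e-07). Neither was called in the uncentred deposited table, where that of SLC4A2 was positive. SLC9B2 was 1.79-fold lower at 24 h than at 6 h (log2 fold change -0.84, SE 0.074, edgeR adjusted p = 1.15e-07), in every scaling. Its same-strand neighbour BDH2 overlaps it, at 5.97, 6.32 and 7.44 CPM in control, 6 h and 24 h libraries.

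Some symbols of these families belong to proteins that carry nothing. The 187 members include 5 of them, which are part of the counts and sums over all members. Their summed level had means of 701 CPM in control, 684 CPM at 6 h and 474 CPM at 24 h with TMM factors. SLC9A3R2 (NHERF2), a scaffold that ties exchangers to the cytoskeleton, was at 366, 366 and 372 CPM in control, 375, 390.3 and 350.4 CPM at 6 h and 168, 158 and 166 CPM at 24 h. Control and 6 h libraries overlapped and the 24 h libraries lay far below both. It fell 2.25-fold by 24 h (log2 fold change -1.17, SE 0.038, edgeR adjusted p = 1.14e-12), in every scaling. The related scaffold SLC9A3R1 (NHERF1) was at 127 ± 4.30, 116 ± 4.52 and 143 ± 1.29 CPM and was higher at 24 h (log2 fold change 0.17, SE 0.035, edgeR adjusted p = 0.00107).

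Chloride, phosphate and sulphate carriers included a brief rise and several dips. The potassium-chloride cotransporter SLC12A7 was at 63.1, 66.3 and 71.7 CPM in control, 120.2, 117 and 118 CPM at 6 h and 73.6, 72.0 and 72.7 CPM at 24 h, a 1.76-fold rise at 6 h (log2 fold change 0.82, SE 0.041, edgeR adjusted p = 2.3e-10) in every scaling. Its 24 h value (log2 fold change 0.12, SE 0.041, edgeR adjusted p = 0.0242) was lost without any of 4 libraries, and in the centred deposited table, and was 0.08 without control library 1. The phosphate carrier SLC20A1 dipped at 6 h, from 390.3, 379 and 375 CPM to 277, 265 and 264 CPM (log2 fold change -0.51, SE 0.035, edgeR adjusted p = 1.38e-08), and was at 381, 381 and 352 CPM at 24 h (log2 fold change -0.04, SE 0.034, edgeR adjusted p = 0.363). The dip was -0.34 and not called in the uncentred deposited table. The sulphate carrier SLC26A2 fell from 13.2, 13.9 and 12.8 CPM to 8.43, 6.93 and 8.68 CPM at 6 h (log2 fold change -0.73, SE 0.098, edgeR adjusted p = 3.11e-05), in every scaling, and had 11.3, 9.70 and 10.7 CPM at 24 h. The related potassium-chloride carrier SLC12A4 had a 24 h value of -0.28 (SE 0.038, edgeR adjusted p = 1.67e-05), which turned positive in the uncentred deposited table. SLC12A2, which brings in sodium, potassium and chloride, was lower at both times, at -0.26 (SE 0.061, edgeR adjusted p = 0.00346) and -0.31 (SE 0.059, edgeR adjusted p = 0.000379), with a 24 h value that turned positive in the uncentred deposited table.

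Carriers of nucleotide sugars, counted together with other carriers of the Golgi or the endoplasmic reticulum, numbered 13. Of these 0 rose and 4 fell at 6 h, 3 rose and 4 fell at 24 h and 7 were higher and 3 lower at 24 h than at 6 h. The shares called against control, 30.8% and 53.8%, stand beside a background of 32.9% and 50.0%. Among genes with at least 5 CPM in a group the background was 41.7% and 60.3%. With 13 carriers these shares say nothing particular to the class. None passed at 6 h in the uncentred deposited table, and 6 rose and 0 fell at 24 h. SLC35B4 was at 45.3, 42.7 and 44.0 CPM in control, 28.8, 27.9 and 30.4 CPM at 6 h and 40.6, 38.5 and 37.4 CPM at 24 h, with a dip at 6 h of -0.59 (SE 0.051, edgeR adjusted p = 1.93e-07). The UDP-sugar carrier SLC35D1 was at 51.2 ± 1.93, 36.6 ± 1.42 and 39.8 ± 0.418 CPM (log2 fold change -0.48, SE 0.045, edgeR adjusted p = 5.22e-07 at 6 h), and the GDP-fucose carrier SLC35C1 had a 6 h value of -0.29 (SE 0.044, edgeR adjusted p = 8.87e-05). Neither 6 h fall passed in the uncentred deposited table. Both genes were also called lower at 24 h with TMM factors, where that table gave 0.08 for SLC35D1 and 0.29 for SLC35C1 without a call.

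Vitamin and cofactor carriers were mixed, with 1 of 9 higher and 3 lower at 6 h and 3 and 3 at 24 h (1 and 0, then 5 and 0, in the uncentred deposited table). These are 44.4% and 66.7% of 9 carriers, beside backgrounds of 32.9% and 50.0% (41.7% and 60.3% among genes with at least 5 CPM). With so few carriers they say nothing particular to the class. The thiamine carrier SLC19A2 rose at 6 h from 14.9, 16.9 and 15.6 CPM to 23.1, 20.3 and 22.0 CPM (log2 fold change 0.46, SE 0.067, edgeR adjusted p = 6.21e-05) in every scaling. The vitamin C carrier SLC23A2 had -0.36 (SE 0.06, edgeR adjusted p = 0.000201) at 6 h and -0.29 (SE 0.056, edgeR adjusted p = 0.000449) at 24 h, and the latter turned positive in the uncentred deposited table. The folate carrier SLC46A1 was higher at 24 h than at 6 h (log2 fold change 0.42, SE 0.068, edgeR adjusted p = 6.77e-05). The riboflavin carriers went apart at 24 h, SLC52A2 at -0.28 (SE 0.052, edgeR adjusted p = 0.000345) and SLC52A3 at 0.33 (SE 0.095, edgeR adjusted p = 0.00858), and the value of SLC52A2 turned positive in the uncentred deposited table. Among organic ion carriers SLC22A3, a polyspecific organic cation carrier, fell at both times, from 36.7, 34.6 and 36.2 CPM to 26.2, 24.6 and 26.0 CPM at 6 h and 24.3, 23.8 and 22.2 CPM at 24 h (log2 fold change -0.61, SE 0.05, edgeR adjusted p = 7.63e-08), without a call in the uncentred deposited table. SLC18B1, a vesicular polyamine carrier, rose at 6 h from 56.6, 54.4 and 48.1 CPM to 71.3, 68.8 and 68.6 CPM (log2 fold change 0.39, SE 0.053, edgeR adjusted p = 3.59e-05), in every scaling. The urea carrier SLC14A1 was at 173 ± 4.85 CPM in control and 200.1 ± 0.688 CPM at 24 h, a rise of 0.21 (SE 0.029, edgeR adjusted p = 2.5e-05).

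Of the 23 members without a substrate class, 3 rose and 11 fell at 6 h and 4 rose and 9 fell at 24 h (2 and 1, then 11 and 0, in the uncentred deposited table). They were called in 60.9% and 56.5% of cases, beside 32.9% and 50.0% of all genes. Among genes with at least 5 CPM in a group 41.7% and 60.3% were called, so the 24 h share is not above that background. SLC22A23 (chromosome 6, 3268962 to 3457023) was at 4.67, 3.72 and 4.76 CPM in control, 2.14, 1.66 and 2.09 CPM at 6 h and 9.54, 10.5 and 9.41 CPM at 24 h. Its 3 groups did not overlap. It reached the member level at 24 h alone, so its high 24 h value is what the rule took. It was 2.21-fold lower than control at 6 h (log2 fold change -1.14, SE 0.15, edgeR adjusted p = 2.25e-05) and 2.25-fold higher at 24 h (log2 fold change 1.17, SE 0.12, edgeR adjusted p = 7.33e-07), in every scaling. PSMG4, which overlaps SLC22A23 on the opposite strand, was at 7.23, 8.85 and 8.87 CPM in control, 6 h and 24 h libraries. SLC35F6, a lysosomal protein, rose at 6 h from 62.2, 63.0 and 66.3 CPM to 111, 100.4 and 98.3 CPM (log2 fold change 0.69, SE 0.047, edgeR adjusted p = 1.27e-08) and was at 63.5, 65.2 and 66.1 CPM at 24 h. It overlaps CENPA on the same strand, which was at 38.1, 40.0 and 23.2 CPM. SLC35E2A and SLC35E2B are near-identical copies, so their values of -0.42 and -0.48 at 6 h are uncertain as separate genes.

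Read as time courses against control, 31 members were lower at both times, 10 higher at both, and 18 moved in opposite directions, 15 of them lower at 6 h and higher at 24 h. The background was 14.3% of genes tested for calls in the same direction and 7.33% for opposite calls, against 41 and 18 of the 187 members. Neither time passed for 36 members (background 38.8%). The remaining members passed at 1 time, with 34 higher and 34 lower at 24 h alone and 10 higher and 14 lower at 6 h alone. Both comparisons share the control libraries. The groups did not overlap for 82 of the 83 members called at 6 h, for 124 of the 127 called at 24 h and for 144 of the 146 that differed from 6 h to 24 h. The shares of all genes called there were 32.9%, 50.0% and 57.2%, which is another measure. How many of all called genes had groups without overlap was not counted. The counts for members are therefore not read as particular to solute carriers.

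**Figure D4:**
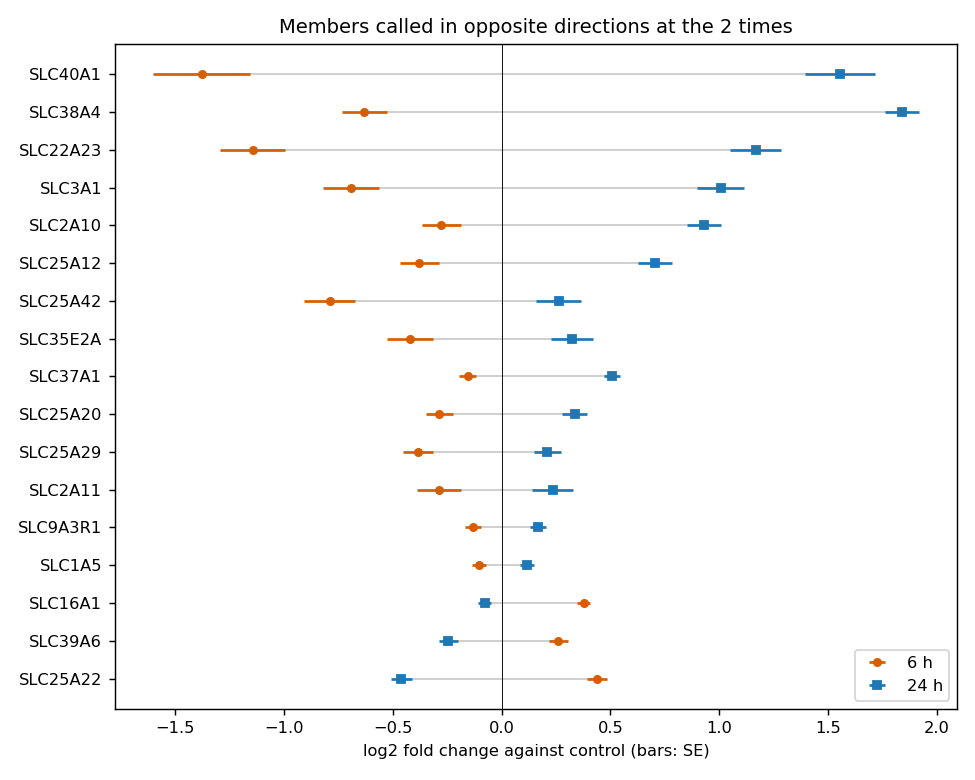
Log2 fold changes against control at 6 h (circles) and 24 h (squares), with bars of 1 SE, for 17 of the 18 members called in opposite directions at the 2 times. Of the 14 drawn that go from lower to higher, SLC40A1, SLC22A23 and SLC3A1 reached the member level at 24 h alone, so the rule favours wide gaps for them. SLC16A1, SLC39A6 and SLC25A22 go from higher to lower.

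Solute carriers whose symbols do not begin with SLC and a digit were set beside the members as a list of 38, of which 34 were tested. At 6 h 5 rose and 5 fell, and at 24 h 10 rose and 13 fell (2 and 0, then 15 and 1, in the uncentred deposited table). The shares called, 29.4% and 67.6%, stand beside 32.9% and 50.0% of all genes. Among genes with at least 5 CPM in a group the background was 41.7% and 60.3%, so the counts are not read as a result about this list. The organic anion carrier SLCO3A1 was at 52.3, 60.1 and 55.6 CPM in control, 68.9, 73.6 and 67.8 CPM at 6 h and 46.9, 47.6 and 47.3 CPM at 24 h, higher at 6 h (log2 fold change 0.32, SE 0.049, edgeR adjusted p = 0.000101). SLCO4C1 went from 0.0599, 0.201 and 0.0651 CPM to 1.56, 1.81 and 1.52 CPM at 24 h (log2 fold change 3.76, SE 0.4, edgeR adjusted p = 1.15e-06), a value that starts from a few reads per library. The lysosomal cholesterol carrier NPC1 was lower at 6 h (log2 fold change -0.17, SE 0.041, edgeR adjusted p = 0.004) and higher at 24 h (log2 fold change 0.16, SE 0.038, edgeR adjusted p = 0.00246).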

How the data were processed

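RNA of SUIT2 cells was sequenced in 9 libraries, 3 per group. The deposited gene table holds estimated counts, of which 20.2% are not whole, and the deposited normalized table holds a signal that equals those counts after the authors added 1e-04 and multiplied each library by 1 factor. STAR 2.7.8a, Partek and the build hg38 are named, with no order, per the submitters' processing notes. The strand setting and annotation version were not stated. Counts were planned as raw and, being estimates, were rounded. Genes were filtered with edgeR 4.0.16 (R 4.3.3; minimum count 10, total 15), scaled with TMM factors and tested by quasi-likelihood over all 9 libraries, with Benjamini-Hochberg adjustment over 16964 genes at 0.05; each SE was derived from the fold change and its F value. The fit had 6 residual degrees of freedom and a biological coefficient of variation of 0.0392. Depth was 15101734 to 40384407 counts per library, and no pair of libraries agreed within sampling noise.

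Alternatives were DESeq2 1.42.0, median-of-ratios factors, library totals alone, no filter, the 2 groups compared only, a replicate block, leaving out each library, members at 10 CPM, limma 3.58.1 on log2 of the deposited normalized signal plus 1 and, added after seeing the data, that table centred per library. The tests were also run on simulated data in which few genes changed, as many up as down. Such data cannot speak to the scaling between these libraries. Genes named were, per comparison, the 10 largest non-overlapping rises and falls and up to 3 called, non-overlapping members per class by adjusted p. Also named were all members called in opposite directions, the 10 most abundant and every tested gene of the lists on innate immunity and CD98. Up to 6 carriers with other symbols completed that rule. SLC25A4, SLC30A1, SLC5A3, SLC25A37, SLC31A1 and SLC13A3 were singled out after their values were seen where that rule did not take them. The members and lists were chosen with earlier results of these data known. Some single-gene results are not reported here, 1 member called in opposite directions among them. Promoter sequences are RefSeq's.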

Additional observations from a re-analysis of the deposited data

Results flagged for a closer look

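Against the same control libraries, 18 of the 187 members were called in opposite directions at 6 h and 24 h, beside 7.33% of all genes tested. For each the direct comparison of 24 h with 6 h passed an adjusted p of 0.05 in edgeR. Opposite calls in the same fit nearly fix that outcome, so it adds no support. Members whose change differed in size but not in direction were not listed. The difference between the 24 h and the 6 h log2 fold change was positive for 15 of them, of which 14 are given here: SLC40A1 (2.93), SLC38A4 (2.47), SLC22A23 (2.31), SLC3A1 (1.70), SLC2A10 (1.21), SLC25A12 (1.08), SLC25A42 (1.05), SLC35E2A (0.75), SLC37A1 (0.66), SLC25A20 (0.62), SLC25A29 (0.59), SLC2A11 (0.52), SLC9A3R1 (0.30) and SLC1A5 (0.22). It was negative for the other 3: SLC25A22 (-0.90), SLC39A6 (-0.50) and SLC16A1 (-0.46). SLC40A1, SLC22A23 and SLC3A1 reached the member level of 5 CPM in 24 h libraries alone, so the size of their gaps rests in part on the rule that chose the members and no order is read from it. Time in culture and interferon cannot be told apart in these differences. Groups of 3 libraries are too small to test for a single library that stands apart. The calls of SLC16A1 and SLC25A42 at 24 h and of SLC2A10 and SLC1A5 at 6 h were lost when certain single libraries were left out. In the uncentred deposited table the 6 h values of SLC1A5, SLC37A1 and SLC9A3R1 turned positive. So did the 24 h values of SLC16A1 and SLC39A6.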

How the results depend on the processing

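Of the 303 values of named genes, none called in at least 1 of the settings compared changed direction with DESeq2, median-of-ratios factors or no filter. The same held with only the 2 groups compared (302 values), the centred table, the replicate block or any library left out. Members higher and lower numbered 20 and 52 at 6 h, 51 and 59 at 24 h and 60 and 64 between the times with DESeq2. Without 1 library they ranged from 22 to 26 and 49 to 60 at 6 h, 46 to 60 and 59 to 70 at 24 h, and 65 to 76 and 65 to 72 between the times. With the replicate block they were 22 and 57, 57 and 65, and 71 and 69. The deviations of same-numbered libraries correlated at -0.059 to 0.021 across genes. No pairing by number was visible there, but 3 libraries per group cannot exclude one. Library totals alone gave 114 lower at 6 h (60 as reported) and 35 lower between the times (70). The deposited table gave 6 lower at 6 h, 101 higher (59) and 5 lower (68) at 24 h, and 11 lower between the times. That table raises the median of all genes in both comparisons with control, and library totals move it as given above; other causes were not tested.

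Log2 fold changes called in at least 1 of the settings compared turned sign under library totals alone at 6 h for MTCH1 (-0.0226), SLC14A1 (-0.12), SLC25A5 (-0.0891), SLC25A6 (-0.11), SLC35D2 (-0.13), SLC4A2 (-0.12) and SLC9A3R2 (-0.13). At 24 h SLC16A1 (8.71e-05) did. Between the times they were SLC12A2 (0.17), SLC19A1 (0.00266), SLC22A3 (0.0918), SLC25A3 (0.0255), SLC25A5 (0.071), SLC35E1 (0.00601), SLC39A14 (0.14), SLC39A9 (0.0976) and SLC41A1 (0.000684). Such values turned sign under the uncentred deposited table at 6 h for SLC19A1 (0.0253), SLC1A5 (0.0649), SLC2A4RG (0.0298), SLC37A1 (0.00676) and SLC9A3R1 (0.037). At 24 h those that did were MFSD12 (0.27), MTCH1 (0.20), SLC12A2 (0.12), SLC12A4 (0.15), SLC15A1 (0.0157), SLC15A4 (0.28), SLC16A1 (0.36), SLC18B1 (0.41), SLC19A1 (0.0735), SLC20A1 (0.40), SLC23A2 (0.15), SLC25A3 (0.24), SLC25A5 (0.34), SLC26A2 (0.10), SLC2A1 (0.34), SLC2A4RG (0.0296), SLC30A5 (0.38), SLC35B1 (0.22), SLC35B4 (0.25), SLC35C1 (0.29), SLC35D1 (0.0752), SLC35E1 (0.0135), SLC39A6 (0.19), SLC39A9 (0.25), SLC41A1 (0.16), SLC4A2 (0.19), SLC52A2 (0.16), SLC7A2 (0.38), SLC7A6 (0.24), SLC7A6OS (0.39), SLC9A8 (0.00925) and SLCO3A1 (0.19). Between the times they were SLC12A4 (0.0529), SLC15A4 (0.0483), SLC19A1 (0.0481), SLC19A2 (0.0254), SLC1A1 (0.0188), SLC22A3 (0.14), SLC25A3 (0.0807), SLC25A5 (0.13), SLC35E1 (0.0568), SLC39A14 (0.20), SLC39A9 (0.15), SLC41A1 (0.0606), SLC41A2 (0.0405) and SLC4A2 (0.00494). In a further 81 cases, each 1 value under 1 setting, a value called in neither setting changed sign. These are counted as unchanged, since no direction was reported for them. Low counts limit SLC40A1, SLC22A23 and SLC3A1 at 6 h, with 62, 141 and 186 counts over 3 libraries.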
